A study of Rattus norvegicus with 4 samples.

Results

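Carbonic anhydrases are described here as a family of 10 genes among the 14506 genes measured in the liver of WNIN/Ob rats. The genes were taken by symbol (Car1, Car2, Car3, Car4, Car5a, Car5b, Car8, Car9, Car12 and Car14) from the probe sets that carry 1 gene symbol in the platform annotation, and each of the 10 had 1 probe set. Where a gene has several, the probe set is chosen by its mean log2 value over the 4 arrays, and the family itself was selected on differences between the pools that were already known. The animals were 4-month-old untreated male rats on a stock diet, of the obese and the lean phenotype of WNIN/Ob, a strain of Wistar origin in which obese animals arise beside lean ones. RNA of 4 obese livers was combined into an obese pool and RNA of 4 lean livers into a lean pool, and each pool was hybridised to 2 Affymetrix Rat Gene ST arrays, called the original and the technical replicate array. The arrays of a pool are technical replicates of 1 RNA mixture, so each phenotype counts as 1 sample, and the comparison carries no p-values.

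Carbonic anhydrases interconvert carbon dioxide and water with bicarbonate and a proton, and most of them hold a zinc ion in the active site. The isozymes differ in where they work: in the cytosol, in mitochondria, or at the cell surface with the active site facing outwards. In liver, mitochondrial carbonic anhydrase supplies bicarbonate to pyruvate carboxylase and carbamoyl phosphate synthetase, and in male rats the cytosolic isozyme Car3 is an abundant hepatic protein whose level depends on growth hormone.

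Promoter windows of 4 genes are shown because they surround the starts of the surface-bound members, which include the member with the largest difference (Car12) and a member with equal levels in both pools (Car14). Each runs from 100 bases before to 30 bases after the RefSeq gene start in build GRCr8, 5′ to 3′ on the strand of the gene, and capitals mark ACGTG or its reverse complement, the core letters of the hypoxia response element.
Car12 (chr8:76169715-76169844, plus strand): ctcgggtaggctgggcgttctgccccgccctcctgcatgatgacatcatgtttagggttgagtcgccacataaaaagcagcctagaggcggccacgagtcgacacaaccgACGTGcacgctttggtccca
Car9 (chr5:62558924-62559053, plus strand): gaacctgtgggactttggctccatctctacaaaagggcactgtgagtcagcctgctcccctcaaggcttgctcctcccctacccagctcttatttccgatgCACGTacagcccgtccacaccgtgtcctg
Car14 (chr2:186138135-186138264, minus strand): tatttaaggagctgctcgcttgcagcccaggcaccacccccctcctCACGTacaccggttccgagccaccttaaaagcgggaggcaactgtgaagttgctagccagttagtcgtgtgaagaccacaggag
Car4 (chr10:70325258-70325387, plus strand): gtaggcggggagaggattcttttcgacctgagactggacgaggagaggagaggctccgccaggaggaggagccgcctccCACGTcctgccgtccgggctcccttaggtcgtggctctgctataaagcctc
The RefSeq promoter table held 6 of the 10 genes. ACGTG occurred on either strand in 4 of these 6 windows, those of Car4, Car9, Car12 and Car14, and in neither window of the mitochondrial members Car5a and Car5b. Of 33469 promoter windows of the same 130 bases, 9.6% held it. A match describes the letters only and is not a site shown to be used.

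Values below are log2 intensities computed from the deposited values, and a difference is the obese pool mean minus the lean pool mean. The range after a difference or fold covers the 4 pairs of an obese and a lean array, so it holds measurement error and no differences between animals. A smaller and a larger size rule were used. The 1.5-fold rule asks for a factor of 1.5 with the nearest arrays of the pools at least 0.25 apart, and the 2-fold rule asks for a factor of 2 and 0.5. Both ask that the higher pool reach the median level of all genes, 5.48, since no detection calls were used. Intensities of different probe sets are not on a common scale per transcript, so the levels of the carbonic anhydrases are not ranked against each other. In the lists further on, the gene of highest intensity is named only as a fixed choice of example and not as the most abundant transcript.

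The family did not move one way. By the 1.5-fold rule 2 of the 10 genes, Car12 and Car2, were higher in the obese pool (2.19% of all genes were), and 2, Car3 and Car8, were lower (2.43% of all genes). By the 2-fold rule Car12 was higher (0.572% of all genes) and Car3 lower (1.48%). The other 6 genes passed neither rule. The genes were chosen with these differences known, so nothing is read from the counts against their backgrounds. Over the 10 genes 4 differences lay above 0 and 6 below, and the median was -0.13, beside 0.03 over all genes. In 8 of the 10 the arrays of the pools did not overlap, which held for 46% of all genes. In 7 genes at least 1 pool reached the median level of all genes. Car4, Car9 and Car5b lay below it in both pools, where background may make up the signal.

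**Figure D1:**
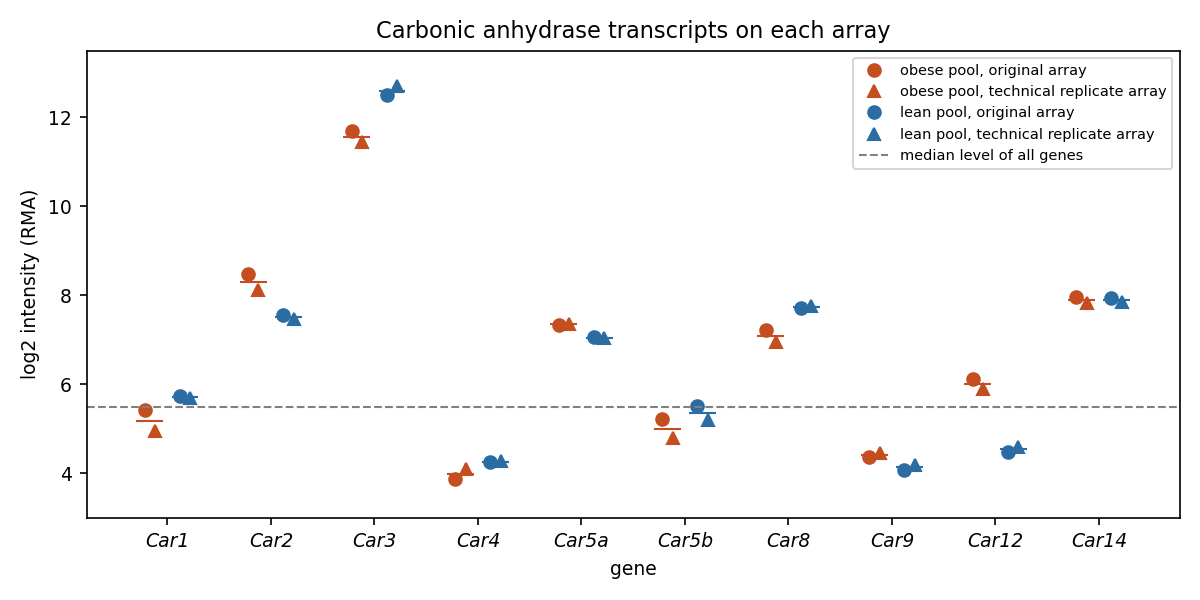
Log2 intensity (vertical axis) of each carbonic anhydrase (horizontal axis) on the 4 arrays, with obese pool arrays at the left and lean pool arrays at the right of each gene, short lines at pool means and a dashed line at the median level of all genes (5.48). The obese arrays lie above the lean arrays for Car2 and Car12 and below them for Car3 and Car8, and the arrays of Car14 overlap.

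Among the cytosolic members Car2 and Car3 stood on opposite sides. Car3, an isozyme of low hydratase activity that is abundant in muscle, fat and male rat liver, stood at 11.69 and 11.45 on the obese arrays, against 12.50 and 12.71 on the lean arrays. Both obese arrays lay below both lean arrays, with 0.80 between the nearest. The difference was -1.03 (-1.26 to -0.80), or 2.05-fold lower (1.75 to 2.40), and was the 245th lowest of the 14506 differences. Its factor of 2 rested on the technical replicate arrays: the difference was -0.80 on the original arrays and -1.26 on the technical replicate arrays, and the 2-fold rule was also missed when either technical replicate array was left out, at -0.91 and -0.93.

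Car2, the fast cytosolic isozyme of red blood cells and many epithelia, stood at 8.49 and 8.12 on the obese arrays and at 7.57 and 7.47 on the lean arrays. Both obese arrays lay above both lean arrays, and the obese arrays were further apart than the lean ones. The difference was 0.78 (0.55 to 1.02), or 1.72-fold higher in the obese pool (1.46 to 2.02). Within arrays, the log2 ratio of Car2 to Car3 was 1.82 higher in the obese pool (1.60 to 2.03). This restates the 2 differences given above for these isozymes.

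Car8 encodes a carbonic anhydrase-related protein that lacks catalytic activity and binds the inositol trisphosphate receptor in neurons. It stood at 7.23 and 6.95 on the obese arrays, against 7.72 and 7.76 on the lean arrays, and the pools did not overlap. The difference was -0.65 (-0.81 to -0.49), or 1.57-fold lower in the obese pool (1.41 to 1.75). Without the technical replicate array of the obese pool it was -0.51 and no longer passed the 1.5-fold rule. Car1, the other main isozyme of red blood cells, stood at 5.42 and 4.95 on the obese arrays and at 5.74 and 5.69 on the lean arrays. Its obese arrays lay below its lean arrays but were 0.47 apart themselves, and the difference of -0.53 (-0.79 to -0.27) fell short of a factor of 1.5. It was -0.76 and past the 1.5-fold rule without the original array of the obese pool.

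The mitochondrial members differed little. Car5a, the isozyme of liver mitochondria, had the closest replicate arrays of the family, at 7.34 and 7.37 in the obese pool and 7.06 and 7.04 in the lean pool. Its difference of 0.30 (0.28 to 0.33) corresponds to a 1.23-fold higher level in the obese pool (1.22 to 1.25), which is larger than the spread between its arrays and below the 1.5-fold rule. Car5b, a mitochondrial isozyme of wider tissue distribution, stood at 5.21 and 4.80 on the obese arrays and at 5.51 and 5.19 on the lean arrays. These arrays overlapped, and the difference was -0.35 (-0.72 to 0.02).

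Of the surface-bound members, Car12 differed most in the whole family. Car12, a transmembrane isozyme of epithelia such as kidney and colon that hypoxia can induce, stood at 6.12 and 5.90 on the obese arrays, against 4.48 and 4.60 on the lean arrays. The nearest arrays of the pools were 1.31 apart. The difference was 1.47 (1.31 to 1.64), or 2.77-fold higher in the obese pool (2.48 to 3.11), the 35th highest of all genes. Because the lean level lay below the median level of all genes and may be background, the size of this fold is uncertain, and adding 16 to each intensity before taking logs, a step that damps dim signals, gave a difference of 1.04.

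Car14, a transmembrane isozyme that hepatocytes carry on their surface in mice, stood at 7.96 and 7.84 on the obese arrays and at 7.95 and 7.86 on the lean arrays. The arrays interleaved, both pool means were 7.90, and the pairs of arrays ran from -0.11 to 0.11. Car9, a transmembrane isozyme of the stomach and bile duct epithelium and a hypoxia-induced gene of many tumours, stood at 4.37 and 4.45 on the obese arrays and at 4.08 and 4.20 on the lean arrays, a difference of 0.27 (0.17 to 0.37) at a dim level. Car4, which is anchored by a lipid to the outer face of endothelial and epithelial cells, stood at 3.87 and 4.11 on the obese arrays and at 4.24 and 4.27 on the lean arrays, a difference of -0.27 (-0.40 to -0.14) at a dim level as well.

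**Figure D2:**
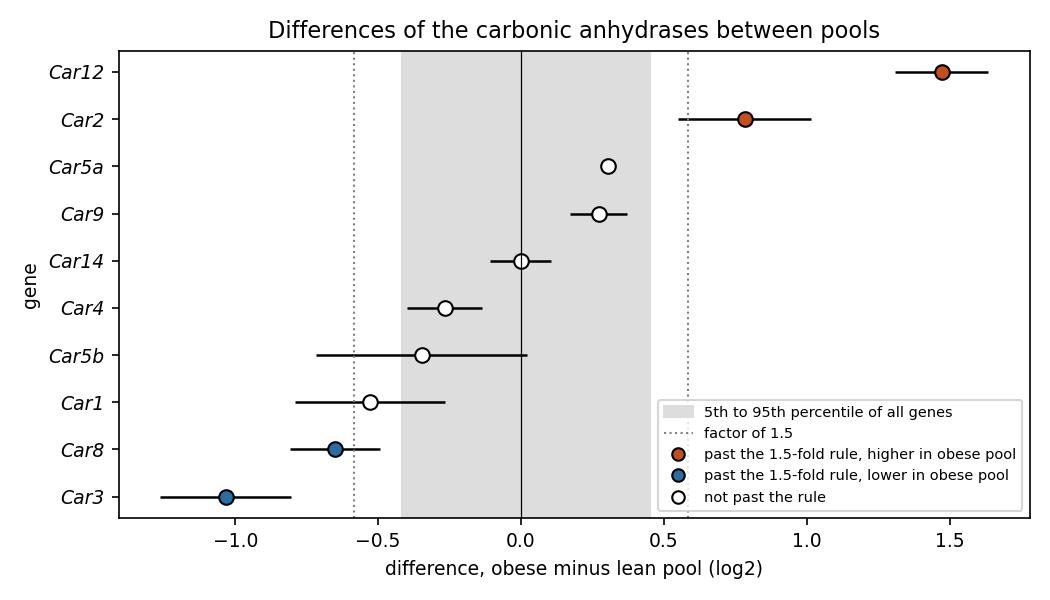
Difference between pools (horizontal axis, log2, obese minus lean) for each carbonic anhydrase (vertical axis), with the point at the difference of pool means, the bar over the 4 pairs of arrays, and a grey band from the 5th to the 95th percentile of all genes (-0.42 to 0.45). Car12 and Car2 lie right of the band and Car1, Car8 and Car3 left of it, and Car1 does not reach the dotted line at a factor of 1.5.

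The original arrays compared with each other, and the technical replicate arrays likewise, gave 9 of the 10 genes the same sign. The labels do not say whether arrays of the same name were processed together. The exception was Car14, at 0.02 on the original and -0.02 on the technical replicate arrays. The size of the difference was unlike between these comparisons for most called genes. Car12 had a difference of 1.64 on the original arrays and 1.31 on the technical replicate arrays, and Car2 one of 0.92 and 0.65. Car8 had -0.49 on the original arrays and -0.81 on the technical replicate arrays. For these 3 genes and Car3 the obese original array was brighter than the obese technical replicate array. That array also had the highest upper quartile over all genes, 7.21 in log2 intensity, where the other 3 arrays had 7.04 to 7.08, and the part of that offset in these differences was not tested.

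**Figure D3:**
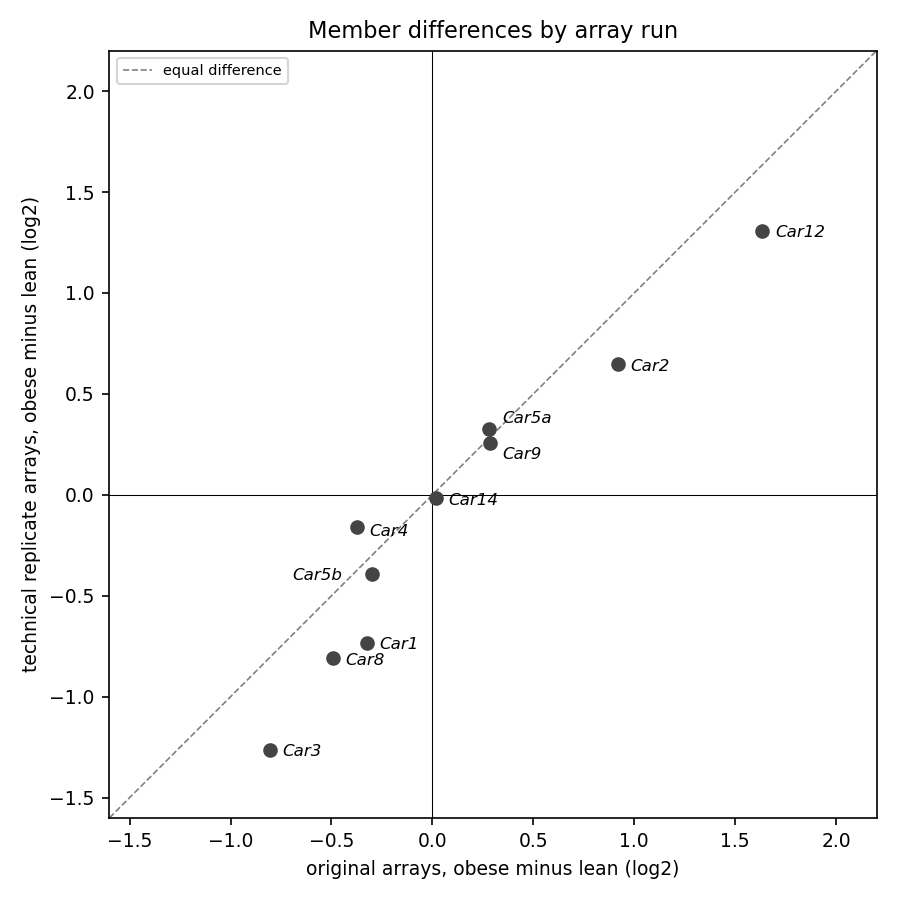
Difference between pools (log2, obese minus lean) on the technical replicate arrays (vertical axis) against that on the original arrays (horizontal axis), 1 point per carbonic anhydrase, with a dashed line where both are equal. All points but those of Car4 and Car5a lie on the lower side of the line, and all genes but Car14 keep their sign.

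Car2, Car3 and Car1 follow each other on chromosome 2 in the GRCr8 gene table, with Car13, a further cytosolic isozyme, next in line and no other protein-coding gene between them. Their differences were 0.78 for Car2, -1.03 for Car3, -0.53 for Car1 and -0.20 for Car13 (-0.73 to 0.34, arrays overlapping). Car2 alone of these had a difference above 0. The next protein-coding genes beyond Car13, which are Rbis, E2f5 and Lrrcc1, had differences of 0.09, -0.08 and -0.10. All lay below the median level of all genes in both pools, so they could not pass a rule. The nearest protein-coding genes on the Car2 side, Sirpb2, Sirpal1 and LOC102546663, had no values here. Car13 and 4 more genes of the family were measured outside the 10. Car7, a cytosolic isozyme, stood at 4.66 and 5.0 on the obese arrays and at 4.18 and 3.99 on the lean arrays, a difference of 0.74 (0.47 to 1.01), but at a level below the median of all genes in both pools. The secreted isozyme Car6, the related protein Car11 and the membrane-bound Car15 had differences of 0.03, -0.11 and -0.21, with overlapping arrays. Car6, Car7, Car11, Car13, Car15 and the receptor phosphatases Ptprg and Ptprz1, which carry a carbonic anhydrase-like domain, formed a list of 7 measured genes of which 0 passed the 1.5-fold rule, with a median of -0.11. Ptprg, the one of highest intensity, stood at 6.76 in the obese and 6.80 in the lean pool. Only 3 of the 7 genes reached the median level of all genes in a pool, so the others could not be called.

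Among enzymes that consume bicarbonate, both acetyl-CoA carboxylases were higher in the obese pool. Of 9 genes that fix bicarbonate, 2 passed the 1.5-fold rule as higher and 0 as lower, with a median of 0.06. Acaca, the cytosolic acetyl-CoA carboxylase, stood at 10.01 and 9.80 on the obese arrays and at 8.71 and 8.64 on the lean arrays, 2.34-fold higher (2.13 to 2.58). Acacb, the acetyl-CoA carboxylase at the outer mitochondrial membrane, was 1.51-fold higher (1.44 to 1.58), close to the limit of the rule. Its difference was 0.66 on the original arrays and 0.52 on the technical replicate arrays, the latter short of a factor of 1.5. Cps1, the carbamoyl phosphate synthetase of the urea cycle, stood at 12.80 in the obese and 12.75 in the lean pool. Pyruvate carboxylase (Pc), picked out once its value was known, differed by 0.44 (0.38 to 0.49), short of the rule.

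Of the carriers of bicarbonate and protons, 1 gene was called. Of 19 bicarbonate and anion exchangers 0 passed the 1.5-fold rule in either direction, the median was -0.03, and the differences ran from -0.45 to 0.51. Only 7 of the 19 reached the median level of all genes in a pool, and the others could not be called. Slc26a1, a sulphate and anion exchanger and the one of highest intensity, stood at 9.96 in the obese and 9.63 in the lean pool. Of 15 genes of proton and lactate transport 10 reached the median level of all genes in a pool. As higher 0 passed and as lower 1, the median was -0.06, and the differences ran from -0.71 to 0.57. The highest of these was the proton pump subunit Atp6v1a, short of the rule and picked out once its value was known. The lower gene was Emb, embigin, a partner of lactate carriers, at 1.63-fold lower (1.42 to 1.88) with an obese level of 5.43, while basigin (Bsg), the other such partner, stood at 10.29 in the obese and 10.03 in the lean pool.

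Car9 and Car12 are known hypoxia-induced genes, and a list of 20 genes of the hypoxia response had a median of -0.04, with 2 genes higher and 2 lower by the 1.5-fold rule. Pdk1, a kinase that restrains pyruvate oxidation, was 2.01-fold higher (1.83 to 2.22), and Ldha, lactate dehydrogenase A and the one of highest intensity, 1.71-fold higher (1.64 to 1.77). Hexokinase 2 (Hk2) and the glycolytic regulator Pfkfb3 had differences of -1.78 and -1.03, and both are also expressed in muscle. Their obese levels of 4.92 and 5.02 lay below the median level of all genes. The list therefore had called members on both sides.

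Car3 is made by several cell types, and the markers of some moved with it. Fewer cells of a type and less RNA per cell cannot be told apart in such pools. Skeletal muscle markers were far lower in the obese pool: 25 of 25 measured genes passed the 2-fold rule, with a median of -5.68, and their summed intensity was 726 to 748 on the obese arrays against 41167 to 42739 on the lean arrays. The muscle actin Acta1, the one of highest intensity, stood at 6.89 and 6.87 on the obese arrays and at 13.08 and 13.12 on the lean arrays. The myosin light chain Myl1, the myosin heavy chain Myh1, the troponin Tnnt3 and the Z-disc protein Myot had differences of -7.07, -6.98, -6.36 and -6.33, with obese levels below the median level of all genes. The tissue source of these muscle transcripts in the lean pool, and their part in the lower Car3, were not tested.

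Of 9 measured genes with higher expression in male rat liver, the group to which hepatic Car3 belongs, 5 passed the 1.5-fold rule as lower and 0 as higher. All 9 differences lay below 0, with a median of -0.75 and a summed intensity of 16400 to 17948 on the obese arrays against 27648 to 28703 on the lean arrays. Cyp3a18, a cytochrome that hydroxylates steroids, differed by -2.92 (-3.14 to -2.70) and its relative Cyp3a2 by -2.16 (-2.34 to -1.97). The organic anion carrier Ust5r differed by -1.03 (-1.35 to -0.71), about as much as Car3, and the cytochrome Cyp2a2 by -0.97 (-1.10 to -0.85). Cyp2c13, the one of highest intensity, had a difference of -0.17. The part of this group's direction in the lower Car3 was not tested.

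Among 12 adipocyte markers 0 were higher and 2 lower by the 1.5-fold rule, with a median of -0.28 and a summed intensity of 881 to 920 on the obese arrays against 1154 to 1180 on the lean arrays. The lower genes were the glucose transporter Slc2a4 and lipoprotein lipase (Lpl), at -2.69 and -2.52, both of which muscle expresses too. Without these 2 genes the sum was higher in the obese pool, at 806 to 838 on the obese arrays against 691 to 732 on the lean arrays. The obese level of Slc2a4, 4.10, lay below the median level of all genes, so its size is uncertain. The lipid droplet gene Cidec, the one of highest intensity, stood at 8.94 in the obese and 8.41 in the lean pool. Over the list 3 differences lay above 0 and 9 below, and 5 of the 12 genes reached the median level of all genes in at least 1 pool. The part of fat cell RNA in the lower Car3 was not tested.

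Red blood cell markers, the cells in which Car1 and Car2 are best known, were lower in part. Of 12 measured genes 0 were higher and 4 lower by the 1.5-fold rule, with a median of -0.26 and a summed intensity of 5107 to 5387 on the obese arrays against 9351 to 10146 on the lean arrays. Alas2, the haem synthesis enzyme of red cell precursors, was 2.53-fold lower (2.35 to 2.72), and the beta-globin genes Hbb-b1 and Hbb 2.21-fold (1.90 to 2.56) and 1.86-fold (1.80 to 1.92). Hbb had the highest intensity of the list, and these globin genes are close copies whose probes may share signal. The red cell spectrin Sptb was 1.94-fold lower (1.82 to 2.07), with an obese level below the median of all genes. Without the 4 called genes the sum was 743 to 849 on the obese arrays against 880 to 928 on the lean arrays. Over the list 4 differences lay above 0 and 8 below, and 7 of the 12 genes reached the median level of all genes in a pool. Car1 had the sign of the 4 called markers and Car2 the opposite sign. The part of red cell RNA in the value of Car1 was not tested.

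Markers of position in the liver lobule had small median shifts, of opposite sign in the pericentral and periportal lists. Carbonic anhydrase of rat hepatocytes, Car3 included, is best known from the zone around the central vein. Over 11 pericentral genes 3 differences lay above 0 and 8 below, with a median of -0.14. The 1.5-fold rule was passed by 0 as higher and by 1 as lower. The lower gene was Slc1a2, a glutamate transporter, at 1.85-fold (1.68 to 2.03), and Cyp2e1, the one of highest intensity, stood at 12.68 in the obese and 12.82 in the lean pool. Over 14 periportal genes 11 differences lay above 0 and 3 below, with a median of 0.23. The rule was passed by 2 as higher and by 1 as lower. Gldc of glycine breakdown was 1.65-fold higher (1.53 to 1.78), the lipid droplet enzyme Hsd17b13 1.61-fold higher (1.53 to 1.69) and the serine dehydratase Sds 1.90-fold lower (1.73 to 2.09), while the immunoglobulin receptor Pigr, the one of highest intensity, differed by 0.08.

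Markers of other cells that make surface-bound isozymes gave few calls. Of 10 bile duct markers 0 were higher and 1, the water channel Aqp1, lower (2.24-fold, 2.02 to 2.48), with a median of 0.01. Of 7 endothelial markers, cells known for Car4, 0 passed in either direction, and all 7 differences lay below 0. Their median was -0.09, and the one of highest intensity, Lyve1, differed by -0.09. Of 10 pancreas and stomach markers 0 passed in either direction, with a median of 0.02, and the elastase Cela1 differed by -0.07. Only 2 of these 10 genes reached the median level of all genes in a pool, as did 2 of the 10 bile duct markers. The others could not be called by either rule, whatever their difference. The summed intensity was 617 to 685 on the obese arrays against 811 to 852 on the lean arrays for bile duct, 833 to 950 against 1028 to 1053 for endothelium and 205 to 243 against 233 to 246 for pancreas and stomach. Without Aqp1 the bile duct sum was 456 to 509 on the obese arrays against 452 to 455 on the lean arrays. Hepatocyte markers were near equal, with 0 of 10 past the rule and a median of 0.07. Albumin (Alb), the one of highest intensity, stood at 13.74 in the obese and 13.67 in the lean pool.

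**Figure D4:**
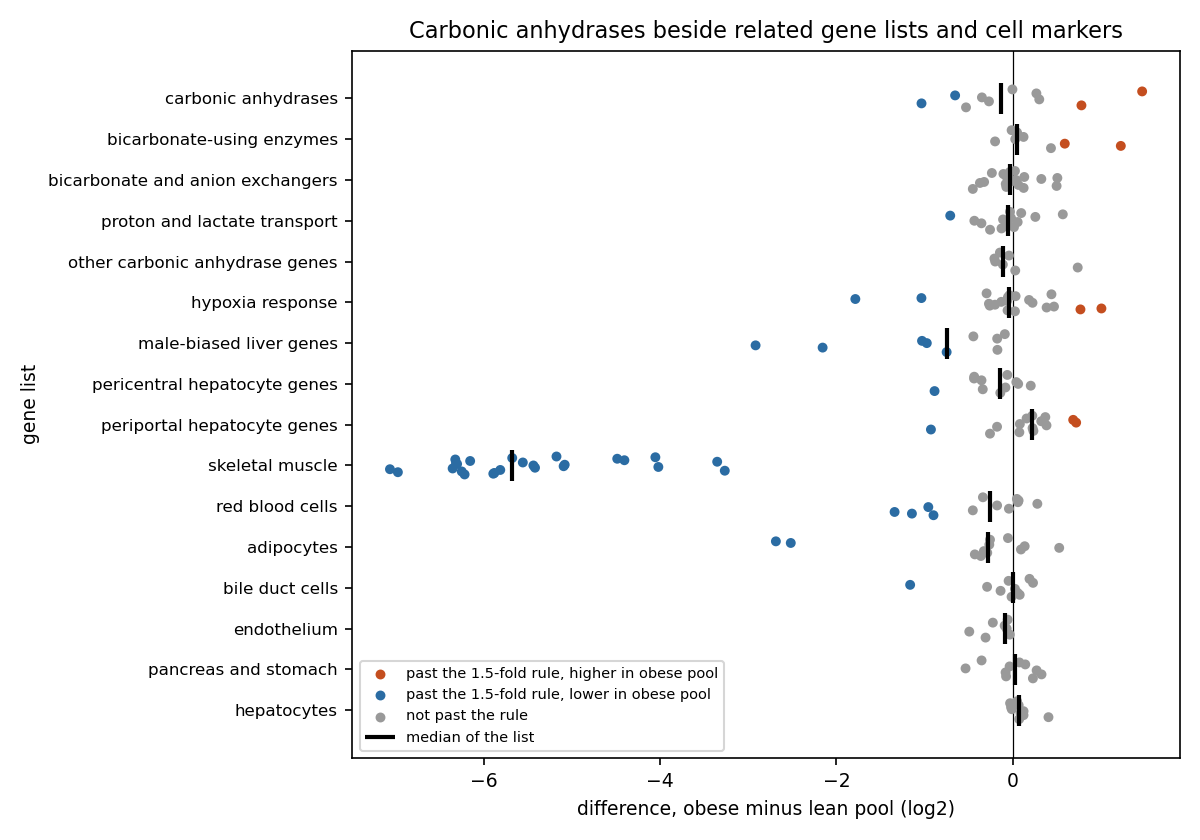
Difference between pools (horizontal axis, log2, obese minus lean) of each measured gene of the carbonic anhydrases and of 15 related gene lists and cell marker lists (vertical axis), with a black bar at each median. The carbonic anhydrases spread from -1.03 to 1.47 around a median of -0.13, and the skeletal muscle markers stand apart at a median of -5.68.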

How the data were processed

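Liver RNA of obese and lean WNIN/Ob rats was amplified from 100 ng per pool and hybridised to 4 arrays. The authors deposited 1 linear intensity per probe set and array, and the submitters' processing notes name RMA, a method that corrects background, normalises between arrays and summarises probes. Its software version, the genome build and the step to a linear scale were not stated. Values ran from 2.31 to 14288, and log2 was taken here with no further normalisation. RMA compresses very dim and very bright signals.

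The platform annotation gave 1 gene symbol to 15310 of the 29214 probe sets and several to 323, and did not list 13581. The highest-mean probe set stood for a gene. The gene identifiers of all 10 members matched their symbols in RefSeq (GRCr8), which served for names, gene order and promoter sequences, not for array positions. The standard deviation over genes of the difference between arrays was 0.27 in the obese and 0.20 in the lean pool, and the number of arrays limits the precision.

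The members, the 15 lists and the alternatives were chosen with earlier results of these data known. Genes named are all carbonic anhydrases, and from each list up to 4 genes past the 1.5-fold rule, largest difference first, and the gene of highest intensity. The calling rules were also run on simulated data, and the outcome is not given here. How well they call differences near a factor of 1.5 was not tested. Alternatives were each array left out, the original arrays alone and the technical replicate arrays alone. Quantile normalisation and cyclic loess (limma 3.58.1 in R 4.3.3) and median centring were also used. The last were an offset of 16, the mean of all probe sets and no filter on level. Other steps used Python 3.11.15.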

Additional observations from a re-analysis of the deposited data

How the results depend on the processing

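Car2 and Car12 were the 2 genes past the 1.5-fold rule as higher under all 12 alternatives. The count of lower genes was 2 as reported, 1 (Car3) on the original arrays alone, 3 (Car1, Car3 and Car8) on the technical replicate arrays alone, and 1 to 3 when an array was left out: Car8 was lost without the obese technical replicate array, and Car1 was added without the obese original array. Of the 10 differences, 9 kept their sign under every alternative run, and Car14 ran from -0.09 to 0.06. Over all genes 317 were higher and 352 lower by the 1.5-fold rule, against 227 and 400 with cyclic loess, 553 and 335 without the obese technical replicate array and 615 and 338 on the original arrays alone. Each phenotype is 1 pool, dim genes have no detection call, and the cause of these shifts was not tested. No paired analysis was possible because the arrays are technical replicates of 2 pools and no test was made.

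List medians moved by more than their spread over array pairs in these cases. With an array left out, medians ran from -0.0808 to 0.0511 for bicarbonate and anion exchangers, -0.11 to 0.0283 for proton and lactate transport, -0.0481 to 0.0626 for hypoxia, -0.77 to -0.70 for male-biased genes, -0.28 to -0.10 for pericentral and 0.17 to 0.25 for periportal genes, -5.73 to -5.60 for muscle, -0.43 to -0.11 for red blood cells, -0.31 to -0.19 for adipocytes, -0.054 to -0.0031 for bile duct, -0.25 to -0.044 for endothelium and -0.12 to 0.0931 for pancreas and stomach. On the original arrays alone they were 0.25 for bicarbonate-using enzymes, 0.0556 for proton and lactate transport, -0.35 for other carbonic anhydrase genes, -0.71 for male-biased genes, -0.0456 for bile duct, -0.15 for pancreas and stomach and 0.11 for hepatocytes. On the technical replicate arrays alone they were 0.0755 for exchangers, 0.12 for other carbonic anhydrase genes, 0.15 for periportal genes, -0.43 for red blood cells, -0.20 for adipocytes, -0.083 for bile duct, -0.23 for endothelium and 0.18 for pancreas and stomach. Cyclic loess gave -0.82 for male-biased genes, 0.16 for periportal genes, -5.77 for muscle and 0.0113 for hepatocytes, quantile normalisation -0.79 for male-biased genes, and the offset of 16 gave -4.95 for muscle and -0.19 for adipocytes.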
